A study of Mus musculus with 3 samples.

Results

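The comparison described here sets mouse ankle synovium cells cultured on plates of 64 kPa, a stiff surface, beside the same kind of cells cultured on plates of 8 kPa, an intermediate one. It uses 2 of the 3 libraries of the series; the library from 0.2 kPa, a soft surface, is given beside them for reference. Of 56833 genes in the table, 11873 had a mean of at least 50 normalized counts over the 3 libraries, and these are the genes compared. All 3 libraries came from mice that carry Efhd1CreER, a tamoxifen-dependent Cre recombinase driven from Efhd1, and Ai9, a reporter that makes the red protein tdTomato once Cre has acted. Cells were released from ankle synovium by enzymes, sorted for tdTomato, plated on collagen-coated wells and lysed after 24 h, and the labels call them telocytes. Because the reporter stays on after Cre has acted, tdTomato marks cells that expressed Efhd1 when Cre was active and their descendants, whatever they became on the plate. The number, age and sex of the animals, the induction of Cre and any pooling of animals are not given in the sources used here. Each stiffness had 1 library, so none of the differences given has a replicate check, no test could be made, and plate, culture and stiffness cannot be told apart.

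Telocytes are interstitial cells with long thin processes that lie close to vessels, nerves and epithelia. Adherent cells pull on what they are attached to through actin and myosin, and integrins gather into focal adhesions where the surface resists. A resisting surface favours polymerised actin, which frees the cofactors MRTF-A and MRTF-B to act with SRF on genes of the contractile apparatus, and favours nuclear YAP and TAZ, which act with TEAD factors. In fibroblasts of joints and other organs these routes accompany the myofibroblast state, whose best known marker is the smooth muscle actin encoded by Acta2. The study asked whether stiffness alters the differentiation of these cells toward fibroblasts.

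The libraries held 25487064 reads at 0.2 kPa, 28081600 at 8 kPa and 26474862 at 64 kPa, and the 10 most abundant genes took 6.59% to 7.20% of them. Values are normalized counts, and 1 read was worth 0.943 of them at 8 kPa and 1.03 at 64 kPa. Ratios are log2((64 kPa + 1)/(8 kPa + 1)), so a ratio of 1 is a doubling, and the added 1 understates the ratios of low genes. Intervals are exact 95% Clopper-Pearson intervals of the reads of both libraries and cover counting error only. Of 10 telocyte markers listed, 6 passed the minimum mean. These were Vim, Pdgfra, Pdgfrb, Cd34, Foxl1 and Acvrl1, of which Pdgfra was at 5884, 6298 and 5118 normalized counts at 0.2, 8 and 64 kPa, Cd34 at 235, 242 and 318 and Foxl1 at 238, 233 and 186; several of them are shared with other fibroblasts. Efhd1 was nearly absent, with 10 reads at 0.2 kPa, 5 at 8 kPa and 3 at 64 kPa, and Kit had 41, 41 and 44 reads. Macrophage genes were present in every library, Lyz2 at 18362, 21482 and 39173 normalized counts in the order 0.2, 8 and 64 kPa, although the cells had been sorted for tdTomato.

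Most genes differed little. The median ratio over the 11873 genes was 0.0061, the central 90% lay between -0.42 and 0.52, and 6072 genes (51.1%) were above 0. At a ratio of at least 1 in size there were 148 genes (1.25%), 98 of them higher (0.825%) and 50 lower (0.421%) at 64 kPa. The 98 included 7 genes of the contractile list, 3 YAP and TAZ targets and 3 macrophage markers. For 20 of the 98, among them Ankrd1, Krt19 and Nexn, the mean of the 0.2 and 8 kPa libraries was under 50, so they were compared only because of their level at 64 kPa. The 50 included interferon response genes, early response genes, the collagenase gene Mmp13 and several genes best known from nerve cells. The counting interval stayed past 0.5 for 146 of the 148. Just inside the threshold were Sp7 at -1.0005, Ddah1 at 1.0013 and Mylk at 1.01, and just outside it Igsf6 at 0.996 and Kcnc2 at -0.993.

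**Figure D1:**
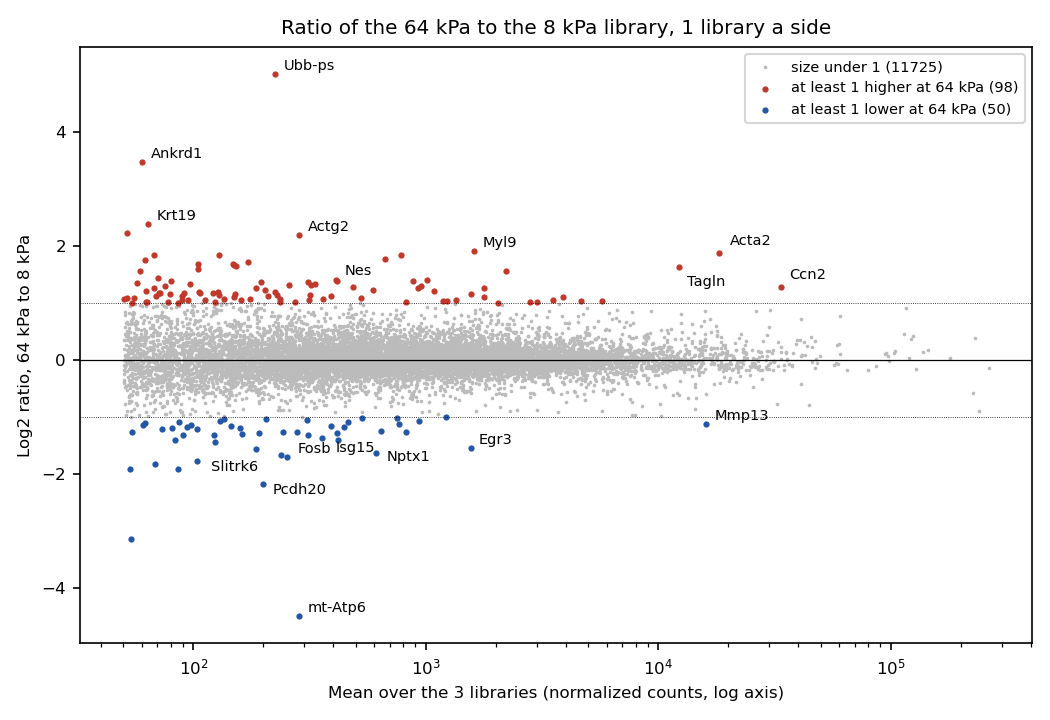
Log2 ratio of the 64 kPa to the 8 kPa library (vertical axis) against the mean of the 3 libraries in normalized counts (horizontal, log axis), 1 point a gene, 11873 genes. The 98 red points are at least 1 higher and the 50 blue points at least 1 lower at 64 kPa; Acta2, Tagln and Ccn2 stand out among abundant genes, and Ubb-ps and mt-Atp6 have the highest and lowest ratios.

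Genes of the smooth muscle contractile apparatus had the highest median ratio of the gene lists with at least 5 members compared. Of 18 listed, 13 passed the minimum mean, 12 were above 0 and 7 were at least 1 higher, with a median of 1.01. Acta2, on chromosome 19 at 34217737 to 34232990 of GRCm39 (minus strand, 9 exons), stood at 7779 normalized counts at 0.2 kPa, 10080.3 at 8 kPa and 36823 at 64 kPa. The 64 kPa library was far above both others, with a ratio of 1.87 (interval 1.84 to 1.90). Tagln, which encodes the actin-binding protein transgelin, was at 5672, 7600.1 and 23402 in the same order, a ratio of 1.62 (1.59 to 1.66). Myl9, the regulatory light chain of smooth muscle myosin, was at 751, 854 and 3216, a ratio of 1.91 (1.81 to 2.02). For these genes the libraries from 0.2 and 8 kPa lay closer to each other than to the 64 kPa library. Acta2, Tagln and Myl9 were 0.37, 0.42 and 0.18 higher at 8 than at 0.2 kPa. Cnn1, encoding calponin, gave 409, 423 and 1519, a ratio of 1.84. The actin gene Actg2 gave 123, 132 and 602, a ratio of 2.18 (1.92 to 2.47). Lmod1, a nucleator of actin filaments in smooth muscle, gave 56.4, 71.6 and 258, a ratio of 1.84 (1.48 to 2.24). Mylk, the kinase of the myosin light chain, was at 682, 590.1 and 1189; its ratio of 1.01 became 0.80 once a trend with the length and GC of transcripts, described near the end, was subtracted. The tropomyosin genes Tpm2 and Tpm1 were at 0.80 and 0.64, and Ppp1r14a, Smtn and Cald1 at 0.57, 0.30 and 0.15. Des, encoding desmin, was not distinguishable between the libraries at this depth (-0.09, interval -0.54 to 0.35). In bulk RNA a change in how many cells express a gene and a change in RNA per cell cannot be told apart, for these genes and for those that follow.

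Members of the list below the minimum mean had few reads. Myh11, the smooth muscle myosin heavy chain, had 7, 7 and 10 reads at 0.2, 8 and 64 kPa, and Myocd, the cardiac and smooth muscle cofactor of SRF, had 2, 0 and 3, too few to show a difference at this depth. Synpo2, an actin-binding protein of muscle, had 34, 31 and 74 reads, a ratio of 1.35 (0.75 to 2.03). Kcnmb1, a potassium channel subunit of smooth muscle, had 8, 1 and 10 reads, a ratio of 2.53 (0.63 to 8.88) that rests on the single read at 8 kPa. Of 9 mural cell markers, 6 passed and 3 were above 0, with a median of 0.07. Among 23 striated muscle genes only 4 passed; Acta1, the skeletal muscle actin, was at 168, 297 and 622, a ratio of 1.07. The actin genes are near-identical in their coding sequence, and how reads that match more than 1 of them were counted is not given in the sources used here, so the split between Acta1, Acta2 and Actg2 is uncertain.

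**Figure D2:**
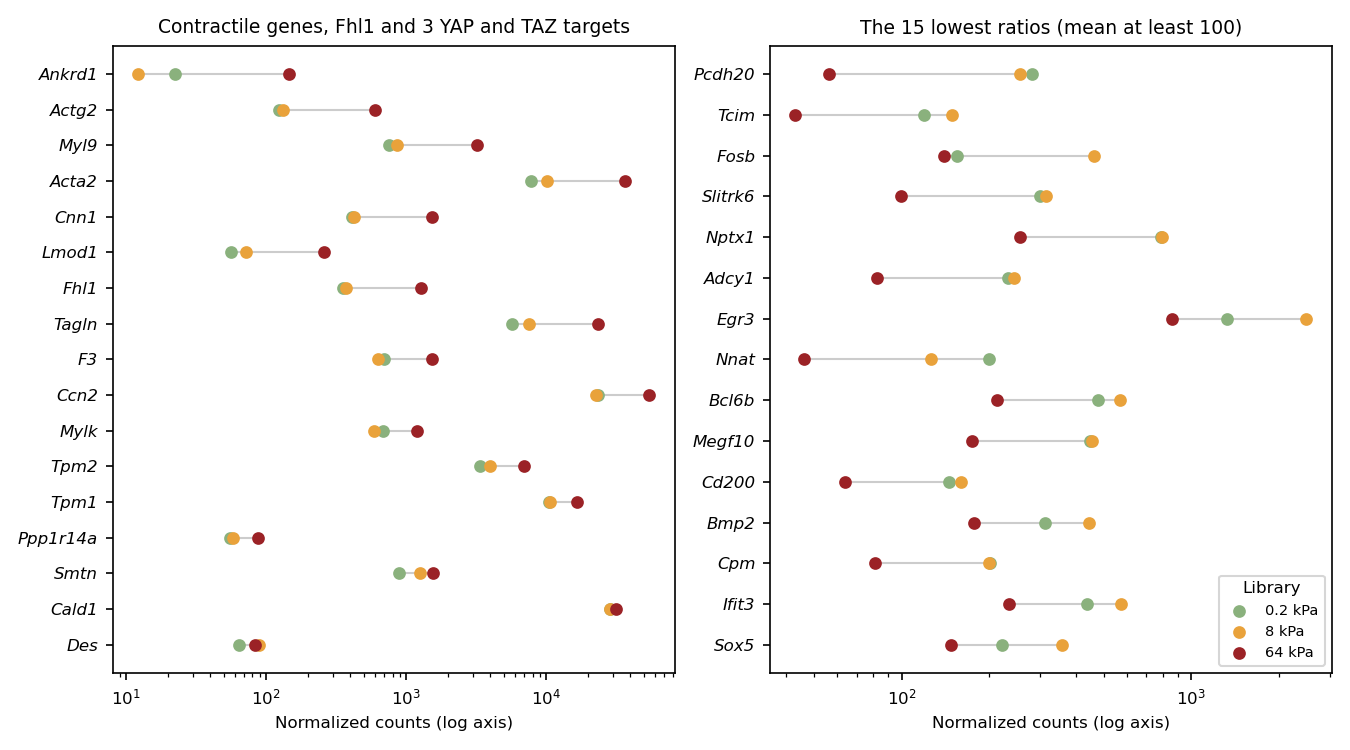
Normalized counts (log axis) in the libraries from 0.2 kPa (green), 8 kPa (orange) and 64 kPa (red); a point is 1 library and the grey line joins the lowest and highest. On the left the 64 kPa value is the highest for every gene shown except Des; on the right, for the 15 lowest ratios by the naming rule, it is the lowest for every gene.

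SRF binds the CArG box, so the promoters of SRF targets were read for it. The RefSeq promoter table (GRCm38.p6) holds windows from 250 bases before to 50 bases after each gene start, and 1.63% of its 32851 windows held a CArG box on either strand. Of 12 windows of 11 contractile genes 1 held it, that of Myl9, and of 23 windows of 17 other MRTF and SRF targets 7 did, 30.4%. Of the 98 genes at least 1 higher at 64 kPa 70 had windows in the table, and 6 of these 86 windows held it, 6.98%. Of the 50 genes at least 1 lower 30 had windows, and none of these 31 did. The other genes past the threshold were not searched, for this motif or those below. A match is a description of letters and not a site, and no match says only that the letters are not in this window. The 250 bases before the RefSeq start of Myl9 and of Fhl1, genes whose ratios were 1.91 and 1.78, are printed 5′ to 3′ with the CArG box in capitals. Each matched GRCm39 exactly once, Myl9 at chr2:156617134-156617383 and Fhl1 at chrX:55824793-55825042, both on the plus strand. Both stretches lie inside the GENCODE genes, which start at 156617084 (Myl9) and 55777147 (Fhl1). Fhl1 has 2 windows in the table, and the printed one was chosen because it held the motif.
Myl9: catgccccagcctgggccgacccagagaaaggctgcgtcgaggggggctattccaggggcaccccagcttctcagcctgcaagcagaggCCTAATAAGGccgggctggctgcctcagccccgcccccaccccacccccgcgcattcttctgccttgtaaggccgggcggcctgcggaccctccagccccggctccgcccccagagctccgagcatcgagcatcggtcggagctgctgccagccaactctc
Fhl1: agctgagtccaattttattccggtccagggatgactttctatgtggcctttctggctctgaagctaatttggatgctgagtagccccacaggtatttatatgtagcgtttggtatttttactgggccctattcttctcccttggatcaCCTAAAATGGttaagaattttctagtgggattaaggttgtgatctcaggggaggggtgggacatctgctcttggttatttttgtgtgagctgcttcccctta

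The wider set of MRTF and SRF targets was shifted the same way by less. All 21 listed passed the minimum mean, 20 were above 0 and the median was 0.46. Fhl1, a LIM domain protein of muscle and fibroblasts, was at 355, 373 and 1281 normalized counts, a ratio of 1.78 (1.61 to 1.95), with the values from 0.2 and 8 kPa almost level. Filip1l was at 0.93, Zyx at 0.85, Vcl at 0.68 and Srf itself at 0.61. Arc, an early response gene that SRF also drives, was the exception at -0.82.

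Targets of YAP and TAZ held some of the highest and some clearly negative ratios. Of 24 listed, 23 passed, 20 were above 0 and 3 at least 1 higher, with a median of 0.32. The counting interval lay above 0 for 17 and below 0 for 2. With the length and GC trend subtracted 17 were above 0 and the median became 0.22. Ankrd1, a cardiac ankyrin repeat protein and a much used readout of YAP, had 22.6 normalized counts at 0.2 kPa, 12.3 at 8 kPa and 146 at 64 kPa. Its ratio was 3.47 (2.75 to 4.52), and it passed the minimum mean only through the 64 kPa library. Ccn2, encoding connective tissue growth factor, was at 23626, 22575 and 54585, a ratio of 1.27 (1.25 to 1.30). F3, encoding tissue factor, was at 700.2, 625 and 1534, a ratio of 1.29. For these 3 genes the value at 8 kPa was below that at 0.2 kPa, and only the 64 kPa library was high. Crim1, Amotl2 and Ccn1 followed at 0.88, 0.86 and 0.86. Vgll3, a cofactor of TEAD factors that is in no list and was chosen after its value was seen, stood at 5005, 4002 and 8169, a ratio of 1.03. In the other direction Nt5e, the ecto-nucleotidase CD73, was at 1484, 1318 and 785, a ratio of -0.75, and Igfbp3 was at -0.45.

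The letters CATTCC, to which TEAD factors bind, were found on either strand in 14.7% of all promoter windows, in 8 of 19 windows of the YAP and TAZ targets (42.1%) and in 6 of 12 of the contractile genes. It was in 4 of 23 windows of the other MRTF and SRF targets (17.4%), in 13 of 86 of the genes at least 1 higher (15.1%) and in 4 of 31 of those at least 1 lower (12.9%), near the share of all windows. No match lay in the window of Ccn2. The promoter of Ankrd1, at chr19:36097245-36097494 on the minus strand of GRCm39, is printed because the gene had the highest ratio of both lists. Its 2 matches, starting 210 and 123 bases before the RefSeq gene start and written GGAATG on the gene's strand, are in capitals. The stretch lies inside the GENCODE gene, which starts at 36097506 on that strand.
Ankrd1: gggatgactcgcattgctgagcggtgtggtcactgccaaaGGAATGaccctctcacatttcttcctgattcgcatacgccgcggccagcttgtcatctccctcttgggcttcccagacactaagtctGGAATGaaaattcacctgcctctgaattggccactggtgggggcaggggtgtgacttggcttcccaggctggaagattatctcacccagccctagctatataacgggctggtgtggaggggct

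The general cytoskeleton and adhesion genes were shifted upward as groups with few large ratios. Of 38 genes of non-muscle actin and myosin 32 were above 0, with a median of 0.24. Myh9, the heavy chain of non-muscle myosin IIA, was at 1873, 3107 and 6656 normalized counts. It was graded over the 3 plates, and its ratio of 1.10 became 0.81 once the length and GC trend was subtracted. Fmnl1, a formin best known from leukocytes, was at 0.91, Actn1 at 0.87, Cnn2 at 0.87 and Actb, the cytoplasmic beta actin, at 0.76. Of 41 integrin and focal adhesion genes 34 were above 0, or 33 when the libraries were scaled to total reads, and none reached 1 in either direction; the median was 0.32. Zyx, encoding the tension-responsive adhesion protein zyxin, was at 5245, 6387 and 11503, a ratio of 0.85, and Tln1, encoding talin, was at 0.80, or 0.50 with the trend subtracted. Itgal, the alpha subunit of the leukocyte integrin LFA-1 and not in this list, was at 1.08. The integrin subunits of the list went both ways, with Itga3 at 0.73, Itga4 at 0.67 and Itga5, of the fibronectin receptor, at 0.38. Itgb3, the beta subunit of the vitronectin receptor, was at 4192, 4484 and 2377, a ratio of -0.92, and Itgb8 was at -0.55.

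Tubulins were shifted upward as a group, while intermediate filaments and proteins of the membrane and cell junctions contributed single genes. All 11 tubulin genes that passed were above 0, with a median of 0.42. Tubb2b was at 534, 655 and 1580.3 normalized counts, a ratio of 1.27, and Tubb3, often used as a neuronal marker, at 0.81. Nes, the intermediate filament nestin, was graded at 169, 291 and 774, a ratio of 1.41. Krt19, a keratin of simple epithelia, was at 17.4, 27.3 and 147, a ratio of 2.38 (1.84 to 3.05), and passed the minimum mean only through the 64 kPa library. The remaining intermediate filament and nuclear envelope genes left the median at 0.10 over 14 genes. Below the minimum mean, the neurofilament gene Nefm had 11, 11 and 90 reads at 0.2, 8 and 64 kPa, a ratio of 3.04 (2.25 to 4.21). Nefl had 0, 2 and 12 reads, and Krt18 went the other way with 2, 4 and 1. These were chosen after their values were seen. Cavin2, which shapes caveolae, was at 1240.5, 1203 and 2882, a ratio of 1.26, while the list of caveolae and mechanosensitive channels had a median of 0.07. Genes outside these lists at least 1 higher included the actin-associated Palld at 1.06 and Nexn at 1.02, and the junction genes Pkp2, a plakophilin of desmosomes, at 1.22 and Jph2, a junctophilin of muscle, at 1.27; they were chosen after their values were seen. Cadherins, catenins and connexins had a median of 0.18 over 11 genes.

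Matrix genes showed small shifts beside those of the contractile genes. All 8 fibrillar collagen genes that passed, of 10 listed, were above 0 with a median of 0.30, and 6 were above 0 with the length and GC trend subtracted. Col1a1 was at 0.46, Col5a1 at 0.63 and Col3a1 at 0.13, while Col1a2 was at 0.10 and became -0.03 with the trend subtracted. Col2a1, the collagen of cartilage, was at 0.80. Other collagens had a median of 0.14 over 17 genes. The transmembrane collagen gene Col23a1 was lower at 64 kPa, at 167, 185 and 82.0 normalized counts, a ratio of -1.16, and Col7a1, of anchoring fibrils, was at -0.87. Basement membrane genes had a median of 0.32, which became 0.14 with the trend subtracted. Elastic fibre genes and those of collagen modification had medians of 0.12 and 0.11, which both became 0.04 without the trend, small leucine-rich proteoglycans 0.11, and hyaluronan and lubrication genes -0.02.

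Genes often used to mark activated fibroblasts were not shifted upward together with Acta2. The list of matricellular and activation genes had a median of -0.15, with 9 of 19 above 0, which became -0.05 without the length and GC trend. Postn, encoding periostin, was at 0.02 and Tnc, encoding tenascin C, at -0.17. Fap, the fibroblast activation protein, was at -0.57, Cthrc1 at -0.59 and Thbs2 at -0.67. Spp1, encoding osteopontin, was very abundant at 316083, 262242 and 140702 normalized counts, a ratio of -0.90 (-0.91 to -0.89), lowest at 64 kPa. Fn1, encoding fibronectin, was at 0.40, and Fndc1 was graded upward at 46.1, 83.9 and 191, a ratio of 1.18.

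Several matrix-degrading enzymes were lower at 64 kPa and 1 of their inhibitors was higher. Mmp13, an interstitial collagenase, was at 18731 normalized counts at 0.2 kPa, 20166 at 8 kPa and 9233 at 64 kPa, a ratio of -1.13 (-1.16 to -1.09). The stromelysin genes Mmp3 and Mmp10 were at -0.76 and -0.60, and the gelatinase gene Mmp9 at -0.68. Timp3, an inhibitor of metalloproteinases bound to the matrix, was at 14496, 13446 and 22164, a ratio of 0.72. Over 16 genes of the list the median was -0.11, with 6 above 0. The ADAMTS family had a median of 0.25 with 7 of 10 above 0, or 0.14 with 6 above 0 without the trend. In it Adamts6 was at 0.87 and the aggrecanase gene Adamts5 at 0.70. Genes of plasminogen activation and coagulation, which include F3, had a median of 0.17.

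**Figure D3:**
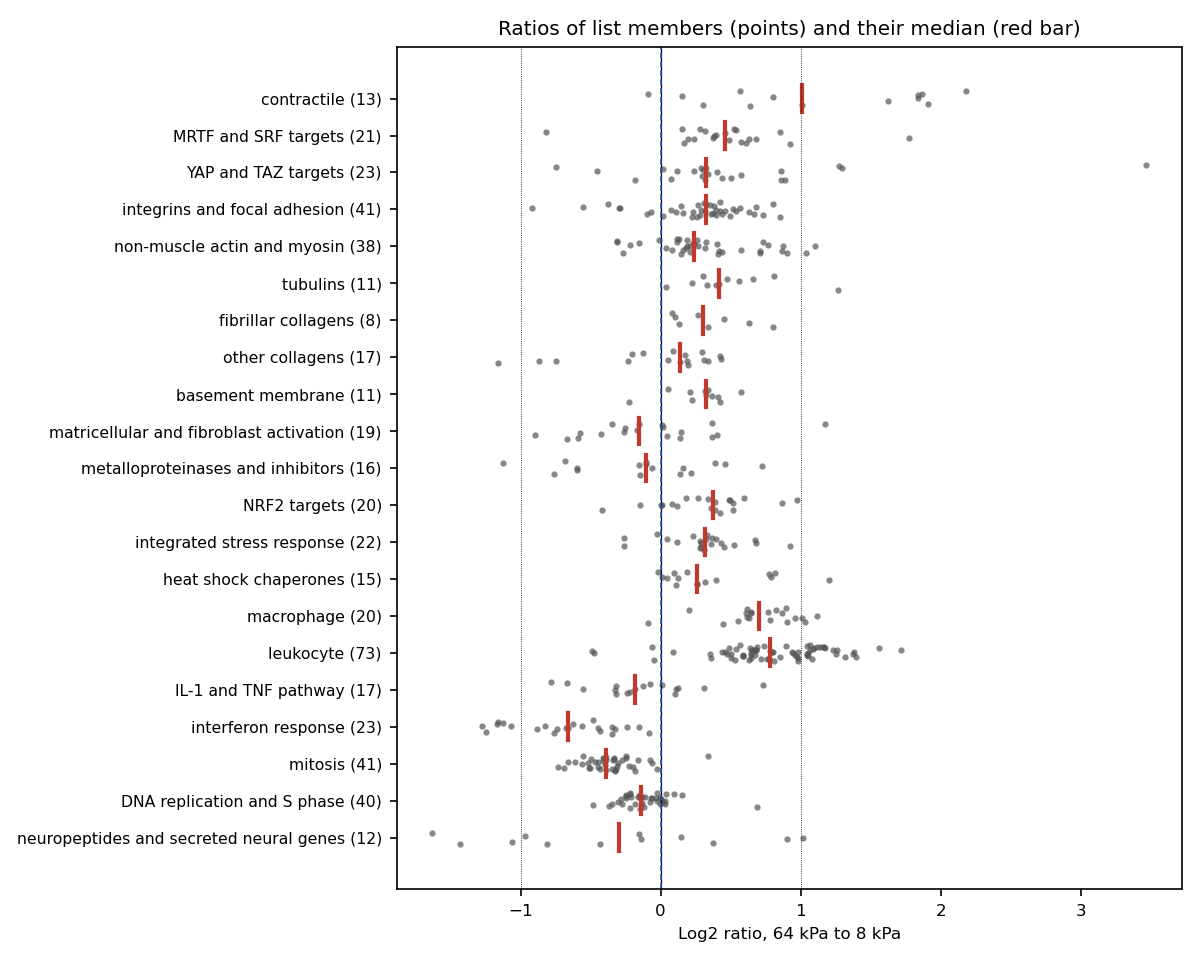
Log2 ratios of the 64 kPa to the 8 kPa library for the members of 21 gene lists that passed the minimum mean (grey points, number in parentheses) and their median (red bar); dotted lines mark -1 and 1, the solid line 0 and the dashed blue line the median of all genes, 0.0061. Contractile and macrophage members have medians of 1.01 and 0.71, leukocyte members, chosen with their values in view, 0.78, and interferon response members -0.66.

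Several genes best known from neurons or their contacts were among the lowest ratios. Pcdh20, a protocadherin on chromosome 14 at 88694835 to 88708832 (minus strand, 2 exons), was at 281 normalized counts at 0.2 kPa, 257 at 8 kPa and 56.4 at 64 kPa, a ratio of -2.17 (-2.64 to -1.77). Slitrk6, a membrane protein of synapse formation and neurite outgrowth, was at 301, 316 and 99.5, a ratio of -1.66. Nptx1, a secreted pentraxin of synapses, was at 787, 793 and 255, a ratio of -1.63 (-1.84 to -1.43). In these 3 genes the softer plates were nearly level and 64 kPa was low. Nnat, encoding neuronatin, and Ndnf, a secreted neurotrophic factor, were instead graded downward, Nnat at 199.9, 126 and 46.1 and Ndnf at 1415, 939 and 449. Penk, the precursor of enkephalins, was also graded at 11316, 7845 and 4004, with a ratio of -0.97 just short of the threshold. The neurosecretory gene Vgf went the other way at 0.90. The list of neuropeptides and secreted neural genes thus had a median of -0.30 with 3 genes at least 1 lower and 1 at least 1 higher among 12. Axon guidance and neuronal adhesion genes centred near the background, with a median of 0.06 over 36 genes and 2 at least 1 higher against 2 lower; the semaphorin genes Sema3e and Sema4a were at 1.08 and 1.07.

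The other lowest ratios came from genes of varied function. Bmp2, a bone morphogenetic protein, was at 314, 442 and 177 normalized counts, a ratio of -1.31, the only gene of the BMP list at least 1 in size. Adcy1, a calcium-stimulated adenylyl cyclase, was at -1.57, the transcriptional repressor Bcl6b at -1.41, the engulfment receptor Megf10 at -1.37 and Cpm, a carboxypeptidase, at -1.29. Cd200, a surface ligand that restrains myeloid cells, was at -1.32, and Tcim at -1.77. Sox5, a cartilage transcription factor, was at 222, 359 and 149, a ratio of -1.27. Sp7, the osteoblast factor osterix, was at 1407, 1501 and 749.6, a ratio of -1.0005. Crabp2, a carrier of retinoic acid, was at 75.9, 101 and 27.7, a ratio of -1.83, below the mean of 100 that the naming rule asks for and named after its value was seen. All of the genes named here except Sox5 lay within 0.5 between 8 and 0.2 kPa. Most genes did so, as 3.94% of all genes were at least 0.5 higher at 8 kPa and 0.657% at least 0.5 lower. These genes were chosen for a low ratio of 64 to 8 kPa, so where their difference lay is a description.

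Interferon response genes that passed the minimum mean were all lower at 64 than at 8 kPa. These genes are induced through transcription factors that include STAT2 and IRF9 when a cell senses interferon or viral nucleic acid. Of 29 symbols listed, of which Ddx58 and Rigi name 1 gene, 23 passed the minimum mean, all 23 were below 0 against 0 above, 6 were at least 1 lower, and the median was -0.66. The counting interval lay below 0 for 21 of them. Of the members with fewer reads, Rsad2 had 31 reads at 8 kPa and 12 at 64 kPa, and Oas2 had 58 and 54, which were not distinguishable. Isg15, a ubiquitin-like modifier on chromosome 4 at 156283883 to 156285303 (minus strand, 2 exons), was at 626 normalized counts at 0.2 kPa, 913 at 8 kPa and 384 at 64 kPa, a ratio of -1.25 (-1.43 to -1.08). Ifit3 was at 436, 570.3 and 235, a ratio of -1.28, and Ifit1, which binds foreign RNA, at 442, 620.3 and 275, a ratio of -1.17. Usp18, which removes ISG15 and dampens the interferon receptor, was at 434, 513 and 229, a ratio of -1.16. In each of these genes the 8 kPa library was the highest and the 64 kPa library the lowest. Ifi44 and Ifit3b were at -1.12 and -1.07, and Ifit3 and Ifit3b are near-identical copies whose reads may have been split either way. The factors themselves were shifted less, with Irf7 at -0.66, Stat2 at -0.43 and Irf9 at -0.35, and Oasl1 and Oas3 lay nearest 0 at -0.15 and -0.08. All 23 were higher at 8 than at 0.2 kPa, with a median of 0.43; both ratios share the 8 kPa library, so a high value in that library alone enters them with opposite signs. Between 64 and 0.2 kPa 17 of the 23 were below 0, with a median of -0.25 and a range from -0.92 to 0.83. Cxcl9, a chemokine induced by interferon gamma, was at 81.0, 146 and 65.6, a ratio of -1.14.

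The core of the interferon-stimulated response element, searched as GAAANNGAAA on either strand and added after the values were seen, was in 3.44% of all promoter windows. It was in 12 of 22 windows of the interferon list (54.5%) and in 6 of 31 windows of the genes at least 1 lower (19.4%), and also in 6 of 86 windows of those at least 1 higher (6.98%). The promoters of Isg15 (GRCm39 chr4:156285276-156285525, minus strand) and Ifit1 (chr19:34618039-34618288, plus strand) are printed as examples from that list with the matches in capitals. In Isg15 3 matches overlap in 1 run that starts 78 bases before the gene start, and in Ifit1 2 matches start 104 and 85 bases before it, written on the opposite strand.
Isg15: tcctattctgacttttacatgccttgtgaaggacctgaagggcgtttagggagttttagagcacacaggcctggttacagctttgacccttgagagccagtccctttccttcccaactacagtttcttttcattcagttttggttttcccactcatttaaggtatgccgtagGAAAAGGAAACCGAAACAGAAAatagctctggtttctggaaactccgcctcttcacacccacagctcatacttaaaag
Ifit1: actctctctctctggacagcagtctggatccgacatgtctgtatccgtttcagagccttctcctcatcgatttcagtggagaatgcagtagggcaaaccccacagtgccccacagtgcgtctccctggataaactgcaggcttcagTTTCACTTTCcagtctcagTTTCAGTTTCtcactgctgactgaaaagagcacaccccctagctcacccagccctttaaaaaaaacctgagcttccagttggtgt

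Early response genes, which are transcribed within minutes of a stimulus, held some low ratios but no common shift. Fosb was at 155 normalized counts at 0.2 kPa, 461 at 8 kPa and 140.5 at 64 kPa, a ratio of -1.71 (-2.00 to -1.44). Egr3 was at 1324, 2495 and 856, a ratio of -1.54, and the nuclear receptor gene Nr4a3 at 130.2, 240.4 and 105, a ratio of -1.19. In these 3 genes the 8 kPa library stood above both others, and the values at 0.2 and 64 kPa lay closer to each other than to it. Egr2 and Arc were also highest at 8 kPa, with ratios of -0.89 and -0.82. Over 21 Egr, Nr4a and other early genes the median was -0.06, with 10 above 0. Of 10 AP-1 genes 2 were below 0, Fosb and Junb, the latter at -0.39; Fos was at 0.34 and the list median was 0.29. Klf2, a flow-responsive transcription factor, was at 0.75, and genes of MAPK feedback had a median of 0.10.

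**Figure D4:**
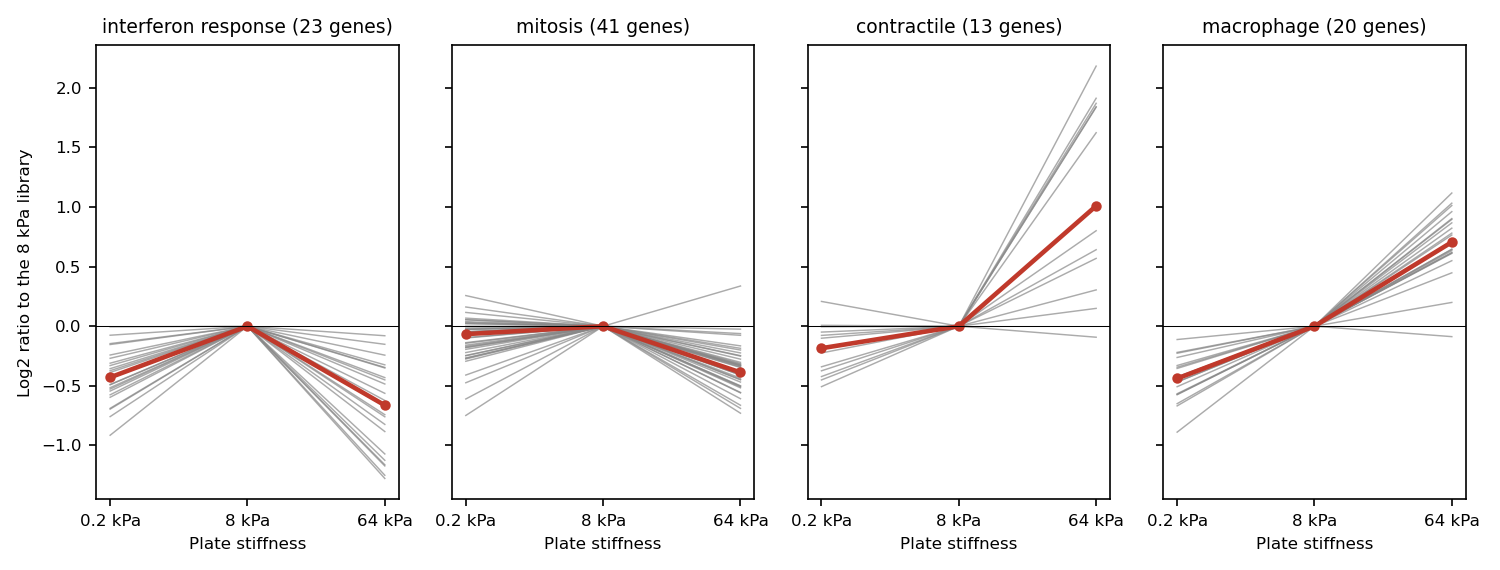
Log2 ratio to the 8 kPa library (vertical axis) at each plate stiffness for the members that passed the minimum mean in 4 lists (grey lines, 1 a gene) and their median (red); the 8 kPa value is 0 by construction. Interferon response genes peak at 8 kPa, mitosis genes are lowest at 64 kPa, contractile genes separate upward at 64 kPa and macrophage genes are graded upward over the 3 plates.

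Genes of mitosis were lower at 64 kPa by small amounts, with 1 exception. Of 41 that passed the minimum mean, of 42 listed, 40 were below 0, 36 with a counting interval below 0, and none reached 1 in size; the median was -0.39. Ccnb2, encoding cyclin B2, was at 1154, 1201 and 724 normalized counts, a ratio of -0.73 (-0.86 to -0.60), with the 64 kPa library below both others. Cdca3 was at -0.69, the kinetochore genes Cenpf and Cenpa at -0.66 and -0.61, and Ccnb1 and its kinase Cdk1 at -0.41 and -0.40. Mki67, the usual marker of cycling cells, was at -0.08, and the motor gene Kif15 was the only one above 0, at 0.34 with an interval of -0.11 to 0.79. Between 8 and 0.2 kPa the same list had a median of 0.07. DNA replication genes were shifted less, with 33 of 40 below 0 and a median of -0.14. Their counting interval lay below 0 for 18 and above 0 for 1. E2f2 stood apart at 0.69. Genes of the p53 response had a median of 0.11, and Cdkn1a, encoding the cell cycle inhibitor p21, was at 0.17.

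The CCAAT box, bound by NF-Y and common in promoters of mitotic genes, was in 37.4% of all windows on either strand and in 30 of 38 windows of the mitosis list (78.9%), against 34 of 86 windows of the genes at least 1 higher (39.5%) and 10 of 31 of those at least 1 lower (32.3%). The promoter of Ccnb2, the lowest ratio of the list, lies at chr9:70328837-70329086 on the minus strand of GRCm39 and held 3 CCAAT boxes, in capitals, starting 87, 54 and 21 bases before the gene start.
Ccnb2: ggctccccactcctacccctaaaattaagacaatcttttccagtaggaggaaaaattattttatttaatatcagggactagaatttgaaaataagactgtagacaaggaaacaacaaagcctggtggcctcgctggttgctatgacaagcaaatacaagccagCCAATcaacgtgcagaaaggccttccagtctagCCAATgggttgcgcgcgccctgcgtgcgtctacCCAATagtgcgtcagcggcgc

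Stress response genes were shifted upward. NRF2 targets, which answer oxidative and electrophilic stress, had a median of 0.37 with 18 of 20 above 0, or 16 when scaled to total reads. Hmox1, encoding heme oxygenase, was at 23679, 23598 and 43112 normalized counts, a ratio of 0.87, and Osgin1 at 0.97, while Nqo1, an often used NRF2 target, was lower at -0.42. Heat shock chaperones had a median of 0.26. The inducible Hsp70 gene Hspa1b was at 793, 744 and 1715, a ratio of 1.20, and its near-identical neighbour Hspa1a, with which reads may be shared, at 0.78. Genes of the integrated stress response had a median of 0.32 with 19 of 22 above 0, Gdf15 at 0.92 and Atf5 at 0.68. Endoplasmic reticulum folding genes lay near the background at 0.06. Among glycolysis and hypoxia genes, with a median of 0.21, Adm, encoding the vasodilator peptide adrenomedullin, was at 1628, 1266 and 3728, a ratio of 1.56, while Vegfa was at -0.56. Cholesterol and fatty acid synthesis had a median of 0.05 and lysosome genes 0.12.

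Inflammatory and growth factor pathways showed no common shift. CXC and CC chemokines had medians of 0.18 and -0.0036, and the IL-6 family 0.01. Osm, encoding oncostatin M, a cytokine of myeloid cells, was at 63.6, 62.2 and 189 normalized counts, a ratio of 1.59, while Il6 was at -0.55. The IL-1 and TNF pathway had a median of -0.19, with Il1rl1, the abundant receptor of IL-33, at 50181, 52730.2 and 30591, a ratio of -0.79, Il1b at -0.67 and Tnf at 0.73. NF-kappaB subunits and inhibitors had a median of -0.04, prostaglandin genes -0.03 and complement genes 0.15. The TGF-beta pathway was at 0.05, which became -0.03 without the length and GC trend. The BMP, Wnt and Notch pathways were at -0.05, 0.02 and -0.05, and growth factor ligands and receptors at -0.01. Within them the secreted antagonists Fst, of activin, and Notum, of Wnt, were lower at -0.90 and -0.81.

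Genes of macrophages were higher at 64 kPa with 1 exception among those compared. Of 23 markers 20 passed, 19 were above 0, 3 at least 1 higher, and the median was 0.71. Lyz2, encoding lysozyme, gave a ratio of 0.87 from the values above, and Csf1r, the receptor that macrophages depend on, was at 1267, 1725 and 3359 normalized counts, a ratio of 0.96. The scavenger receptor Marco was at 170.2, 316 and 686, a ratio of 1.12, and the mannose receptor Mrc1 at 812, 946 and 1934, a ratio of 1.03. These genes were highest at 64 kPa and lowest at 0.2 kPa. Ptprc, the pan-leukocyte CD45, was at 0.62 and Fcgr1, the only one below 0, at -0.09. The summed level of the list was 46579 normalized counts at 0.2 kPa, 59634 at 8 kPa and 100874 at 64 kPa. A wider leukocyte list written after the values were seen gave 24 of 73 genes at least 1 higher and a median of 0.78; 4 of them, Unc13d, Fpr1, Siglecg and Fcgr4, were compared only because of their level at 64 kPa. Of the 98 genes at least 1 higher, 27 were in the macrophage or leukocyte list; most of them came from the added list, whose genes were chosen with their values in view, so the count is a description. Among the 50 lower genes Dcstamp, a fusion protein of osteoclasts and macrophages that is in no list and was chosen after its value was seen, was at -1.18. Among the highest named genes Acod1, the itaconate-making enzyme of activated macrophages, was at 86.1, 99.9 and 330.2, a ratio of 1.71, and Stab1, a scavenger receptor of macrophages and sinus endothelium, at 1.40. The part of a larger share of macrophages in any other difference was not tested. Without the genes of both lists 121 genes remained past the threshold, 71 higher and 50 lower, an alternative added after the values were seen.

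Markers of other cell types gave less. T and B cell and erythroid markers were mostly without reads. Cd3e, the neutrophil gene S100a9 and the keratin gene Krt14 had 0 in each library, which allows up to 3 reads or 3.08 normalized counts at 64 kPa. The only T cell marker that passed was Trbc2, a constant region of the T cell receptor, at 77.9, 98.98 and 42.0 normalized counts, a ratio of -1.22. Of 10 endothelial markers only Eng, an accessory TGF-beta receptor that fibroblasts also make, passed, at a ratio of 0.63 (0.55 to 0.71). Pecam1 had 12, 13 and 4 reads, Cdh5 5, 3 and 0, and Kdr 21, 27 and 45, a ratio of 0.83 (0.14 to 1.60). Esam, an adhesion molecule of endothelium and platelets, was at 78.9, 86.7 and 280.0, a ratio of 1.68. Fibroblast lists lay slightly above the background, lining markers at 0.27, sublining markers at 0.21 and progenitor markers at 0.04. Prg4, the lubricin of lining fibroblasts, was at 0.42, Thy1, of the sublining, at 0.36, and Pdgfra at -0.30. The telocyte markers that passed had a median of 0.0041, which became -0.07 with the trend subtracted. The reporter tdTomato, for which the cells were sorted, was at 818, 1193 and 2668, a ratio of 1.16 (1.06 to 1.26). Cartilage and bone markers had a median of 0.02, and all 6 adipocyte markers that passed were below 0, with a median of -0.14.

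The 0.2 kPa library was set beside the genes past the threshold, which had been chosen by their ratio of 64 to 8 kPa. Between 8 and 0.2 kPa 468 of all genes (3.94%) were at least 0.5 higher at 8 kPa and 78 (0.657%) at least 0.5 lower. Of the 98 genes at least 1 higher at 64 than at 8 kPa, 75 lay within 0.5 between 8 and 0.2 kPa, 20 had already been higher by at least 0.5 at 8 kPa, and 3 had been lower, Ankrd1, Asb5 and Alkal1. Of the 50 lower genes, 35 lay within 0.5, 3 continued downward, Nnat, Ndnf and Aqp5, and 12 had been higher at 8 than at 0.2 kPa, among them Fosb, Egr3, Isg15 and Cxcl9. Ankrd1, Asb5 and Alkal1 were compared only because of their level at 64 kPa, and 5 of the 50 only because of their level at 8 kPa. Without the 20 and 5 such genes, an alternative added after the values were seen, the split was 63 within 0.5, 15 continuing and 0 opposite for the 78 higher genes, and 33, 3 and 9 for the 45 lower ones. The 64 kPa library was the highest of the 3 for all 98 and the lowest for all 50, and against 0.2 kPa 82 of the 98 and 25 of the 50 also reached 1 in the same direction. The 20 that continued upward included Myh9, Acta1, Nes, Krt19, Akap12, Fndc1 and tdTomato with the macrophage genes Marco, Laptm5 and Stab1. Acta2 and Tagln fell short of that class, at 0.37 and 0.42 between 8 and 0.2 kPa, while Myl9, Cnn1, Actg2 and Fhl1 were at 0.18, 0.05, 0.10 and 0.07. The 2 ratios share the 8 kPa library, so chance variation in that library alone can move a gene into the class that turns back.

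Ratios also varied with how long and how GC-rich the transcripts were, as taken for 11630 of the 11873 genes from GENCODE vM39. Where transcripts were shortest and poorest in GC, a class of 415 genes, the median was -0.083; it was 0.22 for the 376 genes with the longest and GC-richest ones. With a local trend over both subtracted, 79 of the 96 higher and 45 of the 49 lower genes with an annotated transcript stayed at least 1 in size. Those that dropped below 1 included Mylk, Myh9, Laptm5, Palld, Epha2 and Itgal among the higher genes and Steap4, Tmem26, Ifi205 and Phf11d among the lower. Acta2, Tagln, Pcdh20 and Isg15 were at 1.90, 1.64, -2.13 and -1.17 after subtraction. Of 58 list medians 29 moved by over 1.5 times or past 0 after subtraction, of which 27 were under 0.2 in size to begin with; the other two were those of the basement membrane and ADAMTS lists. Part of the shift of long genes such as those of talin and collagens moved with this trend, and its part in them beyond the values given was not tested.

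**Figure D5:**
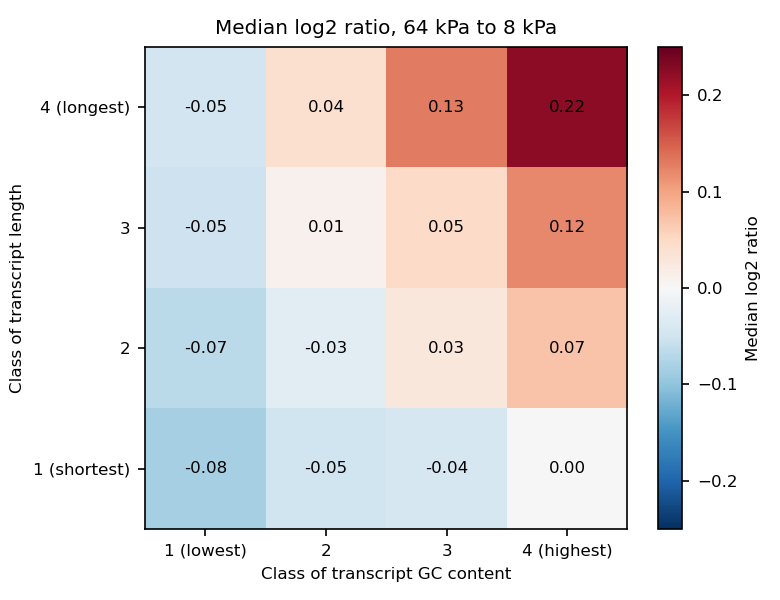
Median log2 ratio of the 64 kPa to the 8 kPa library in 16 classes of transcript length (rows) and GC content (columns), each cut at the quartiles of all genes. Medians run from -0.083 in the shortest and GC-poorest class to 0.22 in the longest and GC-richest.

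The most extreme ratios belonged to genes whose counts are uncertain. These genes are in the counts of 98 higher and 50 lower genes but are left out of the gene lists and the naming rule. Ubb-ps, a processed copy of the ubiquitin gene Ubb, was at 18.5, 18.9 and 638 normalized counts, a ratio of 5.01, while Ubb itself was at 0.09; the copy is near-identical and reads could be placed at either. The mitochondrial gene mt-Atp6 had 60 reads at 0.2 kPa, 805 at 8 kPa and 32 at 64 kPa, a ratio of -4.49, while the other mitochondrial genes that passed lay between -0.35 and 0.26. For mt-Atp6 the 8 kPa library stood far above both others.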

How the data were processed

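Bulk RNA was sequenced from 3 libraries, 1 per plate stiffness, made with a stranded poly(A) kit per the labels' protocols. The submitters' processing notes name bcl2fastq 2.20.0, STAR 2.7.9a, featureCounts, Subread 2.0.1, DESeq2 1.34.0 and GRCm39; the annotation is not given in the sources used here. The authors deposited 1 table, in 3 identical files, of a signal per gene: counts divided by a size factor. In each column 100.0% of values were whole multiples of its smallest positive value within 0.01, so whole reads were recovered. A count test on those reads needs replicates and was not run, so no p-value is given.

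Each column was assigned by its name, which is the title of 1 sample. Log2 ratios used the deposited values with a pseudocount of 1, a minimum mean of 50 over the 3 libraries and a threshold of 1 in size. Counting intervals are 95% Clopper-Pearson intervals of the 2 libraries' reads, and amplified reads are not independent molecules. The 65 gene lists, the genes compared and the rules were chosen with earlier results of these data known; 1 leukocyte list was written after the values of this comparison were seen. Named genes were the 15 highest and 15 lowest ratios with a mean of at least 100, without unnamed models, pseudogenes and mitochondrial genes, list members past 1, up to 4 extreme members of each list at either end, Efhd1, tdTomato and defining markers; the remaining genes are members of a list or were chosen after their values were seen. Transcript length and GC content came from GENCODE vM39 canonical transcripts matched by symbol, and the trend was fitted locally and robustly, by a line in log2 length and GC over each gene's 300 neighbours. The alternatives were other pseudocounts, minimum means, thresholds, 4 scalings, removal of gene classes and subtraction of the trend. The steps were tested on simulated data. Promoter windows and the gene starts they are measured from are RefSeq's. These starts can differ from the GENCODE starts in the gene coordinates given. The tools were matplotlib 3.10.9, scipy 1.17.1, pandas 2.3.3, numpy 2.4.6 and Python 3.11.15. Some genes are not reported here.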

Additional observations from a re-analysis of the deposited data

How the results depend on the processing

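The count of genes past the threshold depended on the minimum mean and on the threshold. It was 451 (257 higher, 194 lower) with a minimum mean of 10, 72 (48 higher, 24 lower) with 200, and 3904 (2507 higher, 1397 lower) with no minimum, where single reads against 0 pass. It was 1050 (644 higher, 406 lower) at a threshold of 0.5 and 33 (21 higher, 12 lower) at 1.5. Under pseudocounts of 0.1 and 10, a mean over only the 64 and 8 kPa libraries, 4 other scalings, removal of gene classes and subtraction of the length and GC trend it lay between 121 and 160. The scalings moved every ratio by -0.036 to -0.0012; scaled to total reads there were 84 higher and 58 lower. The number of the 148 genes within a step between 8 and 0.2 kPa was 110 for a step of 0.5 and 71 for 0.25. Of 84 gene ratios followed, 7 moved outside their counting interval under any alternative and 0 changed sign. Of 58 list medians 12 moved under any alternative, 11 of them with the trend subtracted. That count used a different criterion from the change by over 1.5 times or past 0, which 29 medians met with the trend subtracted. In 13 list medians, each at most 0.14 in size, the sign changed under at least 1 alternative, 11 of them with the trend subtracted (the lists of other collagens, MAPK feedback, CC chemokines, the IL-6 family, prostaglandins, cholesterol synthesis, TGF-beta, IGF, axon guidance, telocyte markers, and cartilage and bone); the Wnt median changed sign when scaled to total reads and the Notch median under other minimum means. No direction is read from these medians. No paired analysis was possible because each stiffness had 1 library, and leaving out a library or a count test with DESeq2 or edgeR could not be fitted for the same reason. Depth limits Ankrd1, Krt19 and other genes with few reads at 8 kPa, whose intervals are wide.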
